A study of Mus musculus with 32 samples.

Results

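Non-P450 enzymes of oxidative and hydrolytic metabolism were examined in mouse liver RNA-seq from WT mice and from mice lacking mitochondrial fission or fusion proteins in hepatocytes. Members were the table rows named as carboxylesterases (*Ces1* to *Ces5*), aldehyde dehydrogenases (*Aldh*), alcohol dehydrogenases (*Adh1* to *Adh7*), flavin-containing monooxygenases (*Fmo*) or aldehyde oxidases (*Aox1* to *Aox4*). The name chose 49 of the 21880 rows, namely 15 carboxylesterases, 19 aldehyde dehydrogenases, 6 alcohol dehydrogenases, 6 flavin monooxygenases and 3 aldehyde oxidases. *Adh6-ps1*, the 1 row with a pseudogene name, was left out.

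The series held 32 liver libraries in 8 groups of 4. WT livers were set beside livers lacking *Dnm1l*, which encodes the fission protein DRP1 (L-*Dnm1l*–KO), livers lacking the fusion genes *Mfn1* and *Mfn2* (DKO), and livers lacking all of these genes (TKO), at 2 months (2M) and 6 months (6M) of age. The floxed alleles were on a mixed strain background and were crossed with mice carrying albumin-driven Cre, which acts in hepatocytes. The paper reports that some immune cells and vessel endothelium of L-*Dnm1l*–KO livers still stained for DRP1. The labels call the WT libraries WT of the Drp1 line at both ages and name no separate WT for the *Mfn1* and *Mfn2* alleles. They give no sex for a library, and they do not say that the numbered libraries of a group came from separate mice.

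The measurement used here was 1 value per gene, the authors' mean of the normalized read count over the libraries. It carries no spread between libraries and no n of its own, so no genotype or age was compared here, no test was run, and the order of rows with similar means cannot be settled. In bulk liver a low mean from fewer cells of a type cannot be told apart from a low mean from less RNA per cell.

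These families act beside the cytochromes P450. Alcohol dehydrogenases oxidize ethanol, retinol and other alcohols to aldehydes with NAD+, and aldehyde dehydrogenases carry the aldehydes on to acids. Carboxylesterases cleave ester and amide bonds in drugs and lipids, flavin monooxygenases add oxygen to soft nitrogen and sulfur atoms, and aldehyde oxidases are molybdenum enzymes that oxidize aldehydes and nitrogen heterocycles. The liver is a main site of all of these reactions.

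The library kit keeps the strand of the RNA, and the strand setting of the read count was not given in the sources used here. Several rows bear on what a level means. The row of *mt-Nd6*, the protein-coding mitochondrial gene that lies on the other strand from the rest, had a mean of 30507 and rank 2 in the table, whereas *mt-Co2* had a mean of 2.37 and *mt-Co3* a mean of 0.775. *mt-Nd3*, *mt-Atp6*, *mt-Atp8* and *mt-Nd4l*, of the same strand as these, had means at or below 6.60. The other genes of that strand were high. *mt-Nd5*, which overlaps *mt-Nd6*, had a mean of 6624, and *mt-Nd1*, *mt-Nd2*, *mt-Co1*, *mt-Nd4* and *mt-Cytb* had means from 629.8 to 1167. *Alb*, usually among the most abundant messages of liver, had a mean of 4957.8 and rank 26. Whether reads were counted on the strand of the gene or on the opposite strand was not tested, so each value below is the number of reads placed on that row and is not read as the amount of the gene's mRNA.

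The stretches below show where members share bases with rows on the opposite strand that had far higher means, since they show which bases both rows could draw reads from. All are coding exons in genome build GRCm38, written 5′ to 3′ on the strand of the member, and capitals mark bases that also lie in an exon of the opposite row. The *Adh1* stretches, on the plus strand at chr3:138282436-138282523 and chr3:138282615-138282834, lie under *Gm16559*. The *Aldh1l1* stretch, on the plus strand at chr6:90596868-90596973, lies under *Gm15756*. The *Aldh5a1* stretch, on the minus strand at chr13:24911564-24911766, lies under *4932702P03Rik*. The *Aldh6a1* stretch, on the minus strand at chr12:84441763-84441924, lies under *Bbof1*.
Adh1 first stretch: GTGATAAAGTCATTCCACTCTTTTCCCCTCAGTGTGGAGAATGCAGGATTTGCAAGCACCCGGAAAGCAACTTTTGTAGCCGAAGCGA
Adh1 second stretch: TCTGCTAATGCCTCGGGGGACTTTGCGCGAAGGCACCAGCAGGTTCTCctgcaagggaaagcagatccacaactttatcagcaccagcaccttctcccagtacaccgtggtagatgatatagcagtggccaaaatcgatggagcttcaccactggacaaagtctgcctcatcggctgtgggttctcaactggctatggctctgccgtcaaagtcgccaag
Aldh1l1: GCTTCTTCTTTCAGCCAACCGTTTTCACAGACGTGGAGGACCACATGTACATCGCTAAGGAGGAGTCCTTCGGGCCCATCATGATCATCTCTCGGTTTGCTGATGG
Aldh5a1: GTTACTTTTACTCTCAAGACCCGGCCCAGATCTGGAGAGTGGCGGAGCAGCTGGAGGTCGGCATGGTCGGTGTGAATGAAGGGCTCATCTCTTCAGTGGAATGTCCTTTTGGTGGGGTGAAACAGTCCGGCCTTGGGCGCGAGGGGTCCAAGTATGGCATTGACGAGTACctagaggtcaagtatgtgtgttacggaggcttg
Aldh6a1: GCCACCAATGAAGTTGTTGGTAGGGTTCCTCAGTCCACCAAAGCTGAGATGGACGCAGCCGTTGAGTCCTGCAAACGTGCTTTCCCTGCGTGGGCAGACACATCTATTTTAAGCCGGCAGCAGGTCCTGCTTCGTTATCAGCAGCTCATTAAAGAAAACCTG

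All members had reads in these liver libraries, over a wide range of levels. Of the 49 members, 38 (77.6%) had a mean of at least 1, 27 (55.1%) a mean of at least 10 and 7 (14.3%) a mean of at least 100. Over all 21880 rows the same shares were 56.8%, 20.2% and 4.63%. The members' median mean was 15.3 against 1.52 for all rows, and the median member stood at percentile 84.3 of the table. Together the members summed to 2240.5 normalized reads, 0.249% of the table's sum of 900450. The alcohol dehydrogenases held 39.4% of the members' sum, the aldehyde dehydrogenases 32.6%, the carboxylesterases 20.6%, the flavin monooxygenases 4.94% and the aldehyde oxidases 2.47%. Of the 881.79 normalized reads summed over the alcohol dehydrogenases, *Adh7* alone gave 682. The annotation names 8 further family genes, *Aldh1a2*, *Aldh3a1*, *Aox4*, *Ces1a*, *Ces1h*, *Ces2f*, *Ces5a* and *Fmo9*. They had no row under these names and were not analysed here, so the shares above are over family genes with a row.

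**Figure D1:**
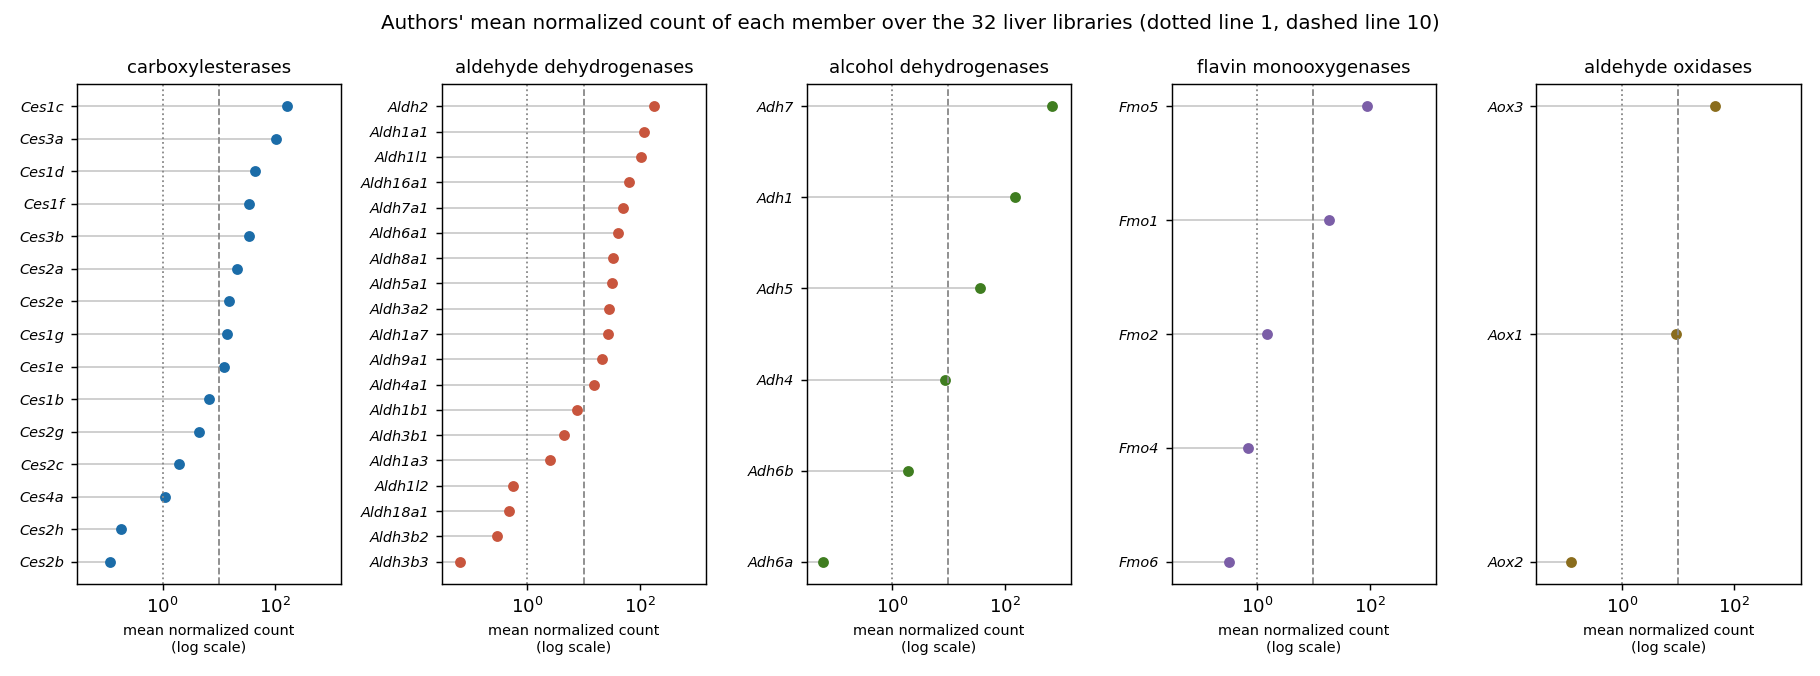
Each point is 1 member, placed on a log axis by the authors' mean normalized count over the 32 libraries, with 1 panel per family and lines at 1 and 10. *Adh7* is the highest member at 682, and each of the 5 families has at least 1 member below 1.

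The alcohol dehydrogenases lie in 1 row on chromosome 3, all on the plus strand within 237.7 kb, and spanned the full range of the members. *Adh7* (ENSMUSG00000055301, chr3:138217760-138233382), the class IV enzyme known for retinol oxidation in stomach and other epithelia, had the highest mean of all members at 682, rank 172 in the table. *Adh1* (ENSMUSG00000074207, chr3:138260991-138290698), the class I enzyme known as the main ethanol dehydrogenase of liver, had a mean of 153. Per kb of exon the level was 180 for *Adh7* and 68.5 for *Adh1*. *Adh7* thus stood above *Adh1* both as a count and per kb.

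The other alcohol dehydrogenases were far lower. *Adh5*, the glutathione-dependent formaldehyde dehydrogenase found in most tissues, had a mean of 36.1. *Adh4*, a class II enzyme of liver, had a mean of 8.63, although per kb it was close to *Adh5* (5.95 against 6.68). Between *Adh1* and *Adh4* on the chromosome, *Adh6b* had a mean of 1.87 and *Adh6a* a mean of 0.0585, which is 2 reads in all 32 libraries. Per kb, levels thus fell from the *Adh7* end to *Adh6a* and were higher again from *Adh6b* to *Adh5*.

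**Figure D2:**
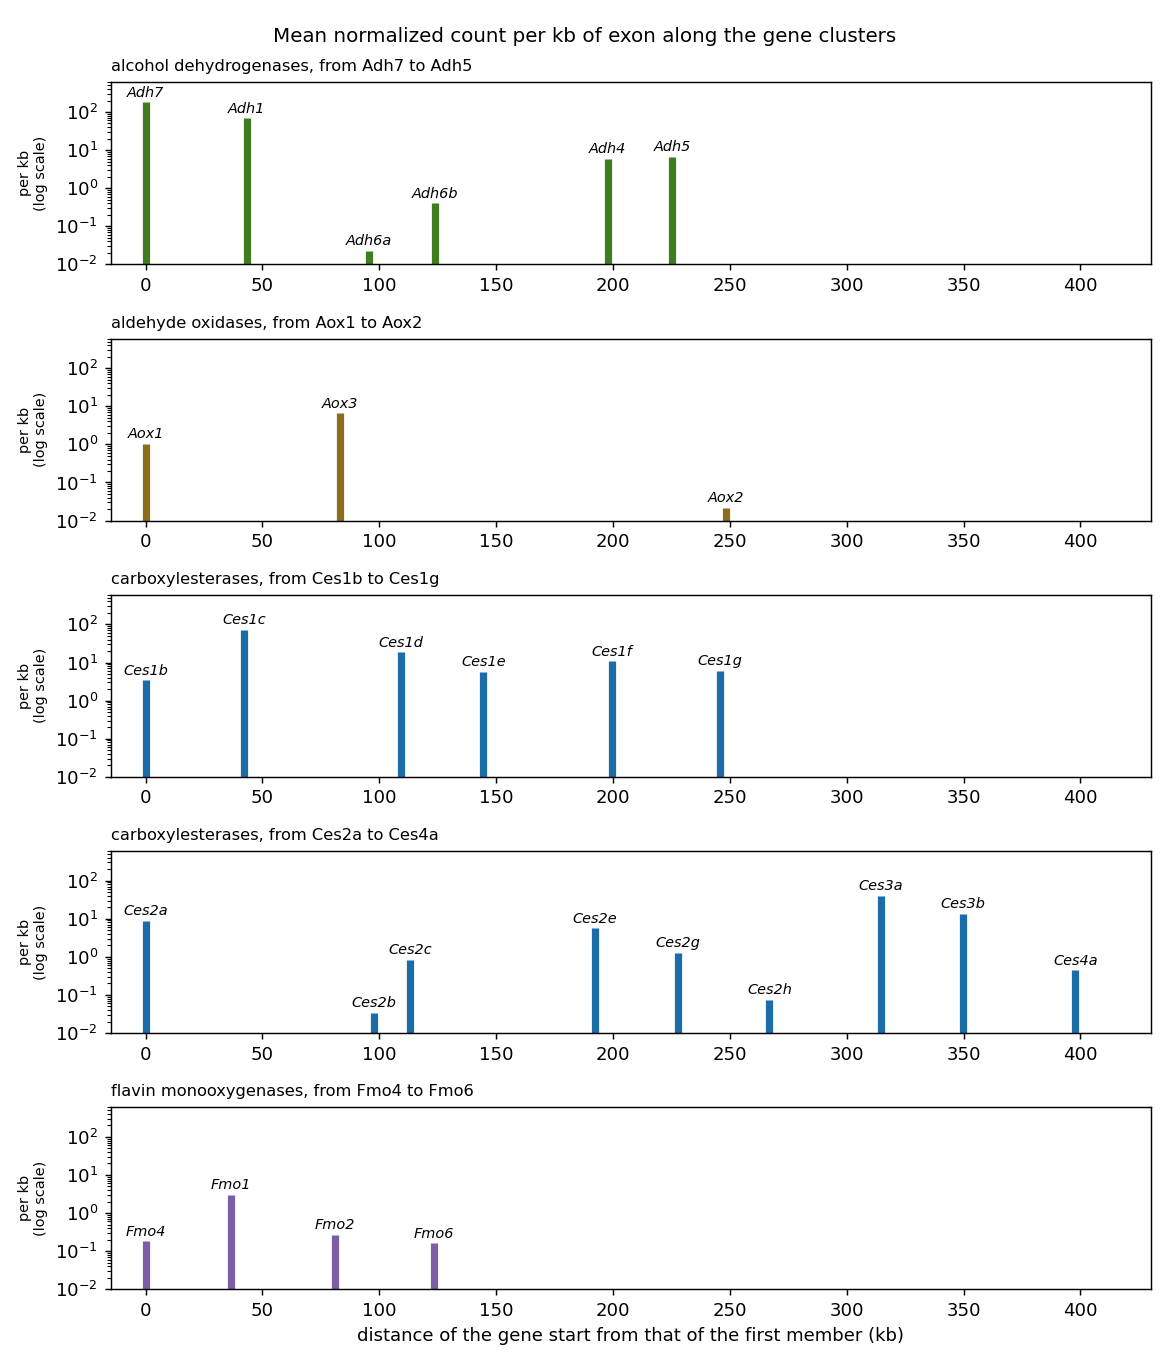
Bars give the mean normalized count per kb of exon (log axis) of each member in 5 gene clusters, placed by the distance in kb of its start from that of the first member. In the alcohol dehydrogenase cluster *Adh7* and *Adh1* stand at 180 and 68.5 per kb and *Adh6a*, between *Adh1* and *Adh6b*, at 0.023.

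Among the aldehyde dehydrogenases 15 of 19 had a mean of at least 1 and 12 a mean of at least 10. *Aldh2* (chr5:121566027-121593824), the mitochondrial enzyme that clears acetaldehyde, had the highest mean of the family at 180. *Aldh1a1* (chr19:20492715-20643465), a cytosolic retinaldehyde dehydrogenase, followed at 121, and *Aldh1l1* (chr6:90486427-90600203), the cytosolic 10-formyltetrahydrofolate dehydrogenase, at 103. Per kb these 3 stood at 35.0, 24.5 and 22.9, in the same order.

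The other 9 aldehyde dehydrogenases with a mean of at least 10 act in varied pathways. *Aldh16a1*, a long member of the family, had a mean of 64.4. *Aldh7a1*, which acts in lysine breakdown, had a mean of 50.03, *Aldh6a1* of valine breakdown 41.3 and *Aldh8a1*, linked to tryptophan breakdown, 32.7. *Aldh5a1*, which oxidizes the succinic semialdehyde made from GABA, had a mean of 31.5. *Aldh3a2*, the fatty aldehyde dehydrogenase, had a mean of 27.7 and *Aldh9a1*, which acts in carnitine synthesis, 20.9. *Aldh1a7*, a rodent relative of *Aldh1a1*, had a mean of 26.8, and *Aldh4a1* of proline breakdown 15.5. Per kb all 9 lay between 3.15 and 13.0, and *Aldh1a7*, with 2066 exon bases, was the highest of them.

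The remaining aldehyde dehydrogenases included enzymes known from other tissues and pathways. *Aldh1b1*, *Aldh3b1* and *Aldh1a3* had means of 7.73, 4.51 and 2.57. *Aldh1l2*, *Aldh18a1*, *Aldh3b2* and *Aldh3b3* lay below 1, from 0.543 down to 0.0635. The rows of the mitochondrial and cytosolic folate enzymes therefore stood far apart, with *Aldh1l2* at 0.0724 per kb and *Aldh1l1* at 22.9 per kb. Both have an opposite row with a higher mean, given below. A hand-made list by textbook location placed 7 members in mitochondria, the organelle that the knockouts act on, and it may not be complete. These 7 ranged from 0.473 for *Aldh18a1* of proline synthesis to 180 for *Aldh2*, with a median of 15.5. Their values in single genotypes were not analysed here.

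All but 2 of the 15 carboxylesterases had a mean of at least 1, and the highest were *Ces1c* and *Ces3a*. *Ces1c* (chr8:93099015-93131283), the carboxylesterase that mouse liver secretes into plasma, had a mean of 167, and *Ces3a* (chr8:105048601-105058413) a mean of 105. Per kb they stood at 71.8 and 40.2, ranks 2 and 4 of all members. Another 7 had means of at least 10, namely *Ces1d* (43.6), known as a triacylglycerol hydrolase, *Ces1f* (35.0), *Ces3b* (34.02), *Ces2a* (20.7), *Ces2e* (15.3), *Ces1g* (14.3) and *Ces1e* (12.4).

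The carboxylesterases with a row lie in 2 clusters on chromosome 8 that differed in how even the levels of these rows were. *Ces1a*, *Ces1h*, *Ces2f* and *Ces5a* had no row under these names, so the ranges leave them out. The 6 *Ces1* genes, all on the minus strand within 280.6 kb, ranged from 3.40 per kb for *Ces1b* to 71.8 per kb for *Ces1c*. The 9 genes from *Ces2a* to *Ces4a*, all on the plus strand within 416.1 kb, ranged from 0.0337 per kb for *Ces2b* to 40.2 per kb for *Ces3a*. Within the second cluster the 6 *Ces2* genes had a median of 1.06 per kb, and *Ces2c* (mean 1.93), *Ces2h* (0.181) and *Ces2b* (0.115) were the lowest of them by mean. *Ces4a* had a mean of 1.09.

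The flavin monooxygenases were led by *Fmo5*, which lies apart from the others on chromosome 3. *Fmo5* (chr3:97628804-97655282), an unusual member that inserts oxygen next to carbonyl groups, had a mean of 89.02. *Fmo1*, which oxidizes many amine drugs, had a mean of 18.9 and was the only clustered *Fmo* gene on chromosome 1 with a mean of at least 10. *Fmo2*, the form known from lung, had a mean of 1.52, and *Fmo4* and *Fmo6* had means of 0.675 and 0.317.

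Of the aldehyde oxidases, *Aox3* (chr1:58113130-58200698), known as the main form of mouse liver, had a mean of 46.03, *Aox1* a mean of 9.17 and *Aox2* a mean of 0.123. Per kb they stood at 6.54, 1.06 and 0.0213. Genes that make or use the same molybdenum cofactor had means from 7.59 to 18.4. *Mocs1* and *Mocs2*, of cofactor synthesis, had means of 8.54 and 18.4, *Gphn* 15.9, *Mocos*, which adds the sulfur that aldehyde oxidases need, 7.59, *Xdh*, the related xanthine dehydrogenase, 14.4, and *Suox*, the sulfite oxidase, 14.5.

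Of the members, 11 shared exon bases with a row of the table on the opposite strand, and in 7 of these 11 (63.6%) the opposite row had the higher mean. Over the other 14478 coding rows, 4323 (29.9%) had such a row against 22.4% of members, and the opposite row was higher in 2740 of them (63.4%). Among rows with a mean of at least 10, 9 of 27 members (33.3%) had an opposite row against 56.6% of other coding rows, and it was higher in 55.6% of those members against 41.6% of those rows. Members thus had an opposite row less often than other coding rows at both levels. The 55.6% is 5 of 9 members, too few to read as a difference from the other rows.

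Among pairs in which the opposite row was higher, *Adh1* and *Gm16559* stood furthest apart by count, and *Aldh1l1* and *Gm15756* per kb. *Gm16559*, an antisense gene in the annotation, had a mean of 12712, rank 9 in the table, which is 83.1 times that of *Adh1*. They share 136 exon bases, all of them coding in *Adh1* and all shown in capitals in the 2 *Adh1* stretches above, and 1008 of the 2233 exon bases of *Adh1* lie inside the span of *Gm16559*. With the reads of both strands side by side, *Adh1* alone gives 68.5 per kb and *Gm16559* 8128 per kb.

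Of the other pairs with a higher opposite row, 3 differed by over 10 times with coding bases in common. *Bbof1*, a coding gene known from motile cilia, had a mean of 1739.5, 42.1 times that of *Aldh6a1*, with 1078 shared exon bases of which 336 were coding in *Aldh6a1*. *Gm15756* had a mean of 3168, 30.7 times that of *Aldh1l1*, and 74.5% of its 670 exon bases lie in *Aldh1l1* exons. Per kb its level was 207 times that of *Aldh1l1*, against 119 times for *Gm16559* over *Adh1*. *4932702P03Rik* had a mean of 498, 15.8 times that of *Aldh5a1*, with 796 shared bases of which 399 were coding. *Aldh5a1* also shared 203 bases at its start with *9330162012Rik*, whose mean of 68.0 was 2.16 times its own.

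The other higher opposite rows rested on less. *Nopchap1* had a mean of 10.4 against 0.543 for *Aldh1l2*, over 1056 shared bases of which 0 were coding, but with its 123179 exon bases it was close to *Aldh1l2* per kb (0.0846 against 0.0724). *Gm45724* had a mean of 624, 5.91 times that of *Ces3a* (37.0 times per kb), but they share 1 base.

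In 4 members the opposite row was lower by count. *Phax* (41.5) and *Pih1d1* (50.7), a pair of widely used coding genes, stood at 0.831 and 0.788 times *Aldh7a1* and *Aldh16a1* by count, but at 1.94 and 2.19 times per kb. *Gm42879* had a mean of 3.23 against 180 for *Aldh2*, and *Gm8642*, which also lies opposite *Aldh7a1*, a mean of 0.0605. *0610031O16Rik* had a mean of 7.13, 0.0105 times that of *Adh7*. Its span covers all 3787 exon bases of *Adh7*, but they share 108 exon bases, of which 10 are coding in *Adh7*. The highest member by count and per kb therefore had a low row opposite it, unlike *Adh1* beside it on the chromosome. The part of strand in these levels was not tested.

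**Figure D3:**
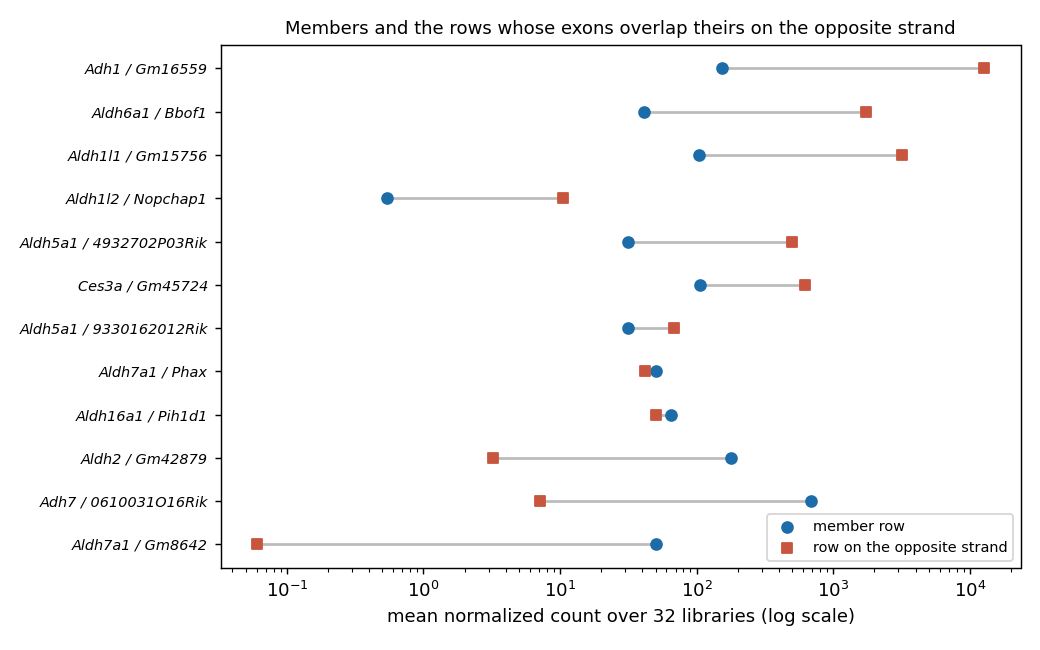
Circles give the mean normalized count (log axis) of a member and squares that of a row with exons on the opposite strand over the member's exons, joined by a line and ordered by their ratio. The square lies right of the circle in 7 of the pairs shown, from *Gm16559* at 83.1 times *Adh1* to *9330162012Rik* at 2.16 times *Aldh5a1*.

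Several members are near copies of each other, which bears on how reads were split between rows. Of 309 pairs within families, 4 had identical bases over at least 90% of the longer coding sequence, namely *Ces3a* and *Ces3b* (95.3%), *Aldh1a1* and *Aldh1a7* (91.6%), *Ces2b* and *Ces2c* (91.3%) and *Aldh3b2* and *Aldh3b3* (90.3%). *Ces1b* and *Ces1c* had 88.9% on this measure and 91.1% when only aligned bases were counted, on which 5 pairs reached 90%. A read of 75 bases that lies wholly in a stretch identical in 2 genes cannot be placed. The stretch below, in exons at chr8:105049886-105049960 of *Ces3a* and chr8:105084958-105085032 of *Ces3b*, both on the plus strand of GRCm38, is such a window, with 0 differences.
Ces3a and Ces3b: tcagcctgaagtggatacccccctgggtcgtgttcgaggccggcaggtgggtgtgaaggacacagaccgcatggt

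Of all such windows along its transcripts, *Ces3a* shared 15.1% and *Ces3b* 15.4% with another gene, in both cases with the other of the pair. *Aldh4a1* shared the most, 28.7%, with *Gm21969*, a gene annotated over the same place and strand (chr4:139603186-139662691) with 1595 exon bases in common, so this is an overlap and not a copy elsewhere. It was followed by *Ces2c* with 22.1%, most of it with the pseudogene *Ces2d-ps*, and *Aldh3b2* with 18.3%. *Ces1c* and *Ces1b* shared 5.08% and 4.50%. Within pairs the level per kb was 40.2 for *Ces3a* against 13.3 for *Ces3b*, 24.5 for *Aldh1a1* against 13.0 for *Aldh1a7*, and 0.840 for *Ces2c* against 0.0337 for *Ces2b*, and these values are uncertain by whatever share of reads was dropped or moved.

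Promoters of the members were poor in CpG, the dinucleotide that marks most promoters of widely used genes. A RefSeq window (GRCm38.p6) of 250 bases before to 50 after the start was matched by symbol for 37 of the 49 members. The RefSeq start lay within 50 bases of the GENCODE gene start in 26 of them, further inside the gene in 9 and further outside in 2, so some windows are not the bases before the gene as placed above. The ratio of observed to expected CpG had a median of 0.235 over these 37 and of 0.705 over the 12911 promoters of all matched rows. A ratio of at least 0.6 was found in 4 of 37 members (10.8%) and in 61.1% of all promoters. The 4 were all aldehyde dehydrogenases, *Aldh3a2* (0.736), *Aldh5a1* (0.891), *Aldh18a1* (0.902) and *Aldh16a1* (0.903). The 11 carboxylesterases had a median of 0.134, and *Ces1e* had 0 CpG in its window.

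The 100 bases before the start are shown for a CpG-poor promoter of a high member, *Ces1c*, for the CpG-rich *Aldh5a1*, and for *Ces3b* and *Adh6a*, which have the letters TATAAA, in capitals, within these bases. The windows lie at chr8:93131284-93131383 (minus strand) for *Ces1c*, chr13:24937662-24937761 (minus strand) for *Aldh5a1*, chr8:105083655-105083754 (plus strand) for *Ces3b* and chr3:138313186-138313285 (plus strand) for *Adh6a*.
Ces1c: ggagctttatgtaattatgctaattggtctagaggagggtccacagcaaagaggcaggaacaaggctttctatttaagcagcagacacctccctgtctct
Aldh5a1: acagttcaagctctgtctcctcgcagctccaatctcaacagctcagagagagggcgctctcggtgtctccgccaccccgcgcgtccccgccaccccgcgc
Ces3b: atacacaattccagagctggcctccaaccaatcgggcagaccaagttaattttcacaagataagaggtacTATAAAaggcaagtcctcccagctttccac
Adh6a: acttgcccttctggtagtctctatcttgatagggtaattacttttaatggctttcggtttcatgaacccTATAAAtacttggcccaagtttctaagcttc

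The TATAAA letters begin at position -30 in *Ces3b* and -31 in *Adh6a*, counted from the start. They also occur at -26 of *Ces1g*, on the other strand, but its RefSeq start lies 99 bases inside the GENCODE gene. In the whole window TATAAA was found on either strand in 7 of 37 members (18.9%) and in 8.48% of all 12911 promoters. CCAAT was found in 64.9% of members and 38.2% of all promoters, TTGCNNAA, the letters of a C/EBP element, in 27.0% and 8.90%, and GCGTG, the core bound by the aryl hydrocarbon receptor, in 27.0% and 46.2%. CAAAGTCCA, an HNF4 element, was found in 0 members and 0.534% of all promoters, and the HNF1 palindrome, matched without mismatches, in 0 members and 0 of all promoters. All were searched on both strands, and the shares were not matched for base composition. GCGTG holds a CpG, and the members' windows had a median GC of 49.7% against 59.3% over all promoters. Shared letters are a description of the windows, and *Adh6a*, with TATAAA at -31, had 2 reads in all 32 libraries.

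**Figure D4:**
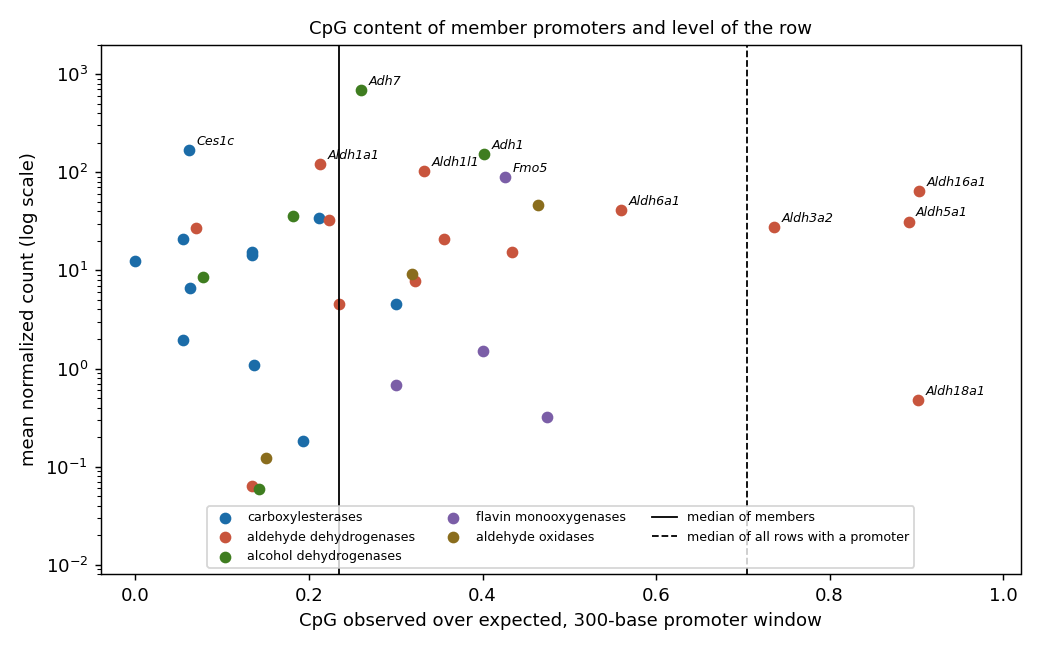
Each point is 1 of the 37 members with a promoter window, by the ratio of observed to expected CpG and the mean normalized count (log axis), with lines at the median of members (0.235) and of all rows with a promoter (0.705). Only *Aldh3a2*, *Aldh5a1*, *Aldh18a1* and *Aldh16a1* lie right of the second line, and their means run from 0.473 to 64.4.

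Rows of marker genes were read with the same limit on strand, so they describe the table and do not settle which cells the RNA came from. All 10 hepatocyte genes had means of at least 10, from 68.1 for *Hnf4a* to 4957.8 for *Alb*. Endothelial genes ranged from 1.06 to 4.36, stellate genes from 0.261 to 8.20, cholangiocyte genes from 0.0613 to 0.420 and lymphocyte genes from 0.0932 to 0.863, and the lung and airway genes *Sftpc* and *Scgb1a1* had means of 0.0565 to 0.274. Of 7 macrophage genes 6 lay below 10, while *Csf1r* had a mean of 121. Some low marker rows had higher rows opposite them, namely *Clec4g* (2.88 against 122 for *Gm16553*), *Reln* (4.42 against 48.1 for *Gm10475*) and *Stab2* (4.36 against 29.1 for *Gm16268*). The other marker rows with means below 10 had no row opposite them.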

How the data were processed

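Libraries were made from poly(A) RNA of mouse liver with a kit that keeps strand and read as single-end 75-base reads. Per the labels and methods, the authors mapped reads with HISAT2 (2.1.0.13) to GRCm38 (Ensembl 90), counted them with HTSeq and scaled them with DESeq2. The deposited table gives 1 mean normalized count per gene (a signal averaged by the authors over libraries, repeated identically for 6 comparisons) and 30 columns of the authors' comparisons (log2 fold changes, standard errors, statistics and p-values), which were not used. The planned count test between genotypes was therefore not made here.

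Exons came from GENCODE M21 (GRCm38; 21833 of 21880 rows matched by identifier, 47 not). Levels per kb used the union of exons. Named genes were members with a mean of at least 10, the highest of each family, those with a higher row on the opposite strand and pairs with at least 90% identity, taken on coding bases in place of the planned protein sequence; most other members are given by value because they are few, and 1 member is counted in the totals but not reported here. The members and lists were chosen with earlier results of these data known, and the promoter, shared-window and library-step analyses were added after the data were seen. Among rows below 3 reads, means were sums of steps of 1 read in 1 library. The search found 32 such steps, which accounted for 1408 of 1408 rows within 5e-09 and gave size factors of 0.791 to 1.38, a 1.75-fold range. Steps were added up to the number of libraries and taken from these same rows, so both counts are partly set by the search. The steps could not be assigned to named libraries. The search was first tested on simulated data, where it recovered nearly all, but not all, of the steps. Python 3.11.15, pandas 2.3.3 and Biopython 1.88 were used. The 3 neutrophil genes of the marker lists and 1 of 4 lymphocyte genes had no row under their names and were not analysed here.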

Additional observations from a re-analysis of the deposited data

How the results depend on the processing

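Of 17 alternatives, 14 left the value within 1.5 times of that reported. With the longest coding sequence in place of the union of exons, the members' median level per kb was 9.10 in place of 5.57, since the length is shorter; 8 of the 10 highest members per kb were shared. With only coding rows taken as opposite rows, 4 members had one in place of 11, and it was higher in 2 in place of 7, since most opposite rows are not coding. Members found numbered 40 at a mean of at least 0.5, 27 at 10, 33 with the 8 close copies left out and 31 with the 10 that are close copies over aligned bases, a measure chosen after seeing the data. No paired analysis was possible because 1 mean over all libraries was used and no value per library. For the same reason the genotype comparison, other count tools, filters, pseudocounts and leaving out each replicate were not run. Without values per library, no error can be given for any mean. A mean of 0.0226 to 0.0395 was worth 1 read in 1 library, so *Aldh3b3* and *Adh6a*, at 2 reads, are at the limit of what the depth can show.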

Other observations

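Other enzymes of oxidative, reductive and hydrolytic metabolism outside the P450 and member families were listed beside the members, as a list chosen by hand. All 34 listed genes had a row, 31 had a mean of at least 1 and 19 a mean of at least 10, with a median of 13.6 against 15.3 for the members. *Cat*, the peroxisomal catalase, was highest with a mean of 192, followed by *Sord*, the sorbitol dehydrogenase, at 80.5, *Rdh7*, a retinol dehydrogenase, at 71.6, *Ephx2*, the soluble epoxide hydrolase, at 70.01 and *Akr1c6*, a hydroxysteroid dehydrogenase, at 66.8. The 3 with means below 1 were *Cbr3* and *Akr1b3*, at or below 0.143, and *Nqo1*, a quinone reductase, at 0.733. Per kb of exon, *Cat* stood at 73.5, next to *Ces1c* at 71.8, and *Rdh7* at 42.7, next to *Ces3a* at 40.2. Among the members that act on retinoids, 6 of the 7 listed had a row, from 2.57 for *Aldh1a3* to 682 for *Adh7*.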
